A study of Mus musculus with 2 samples.

Results

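The genes described here encode the surface antigens that were stained to sort skin tumour cells, together with further antigens used elsewhere to enrich tumour stem cells: Cd34, Epcam, Prom1, Cd44, Cd24a, Ly6a, Ptprc, Pecam1 and Pdgfra. They were chosen by name, and each was read through the probe sets, groups of short probes that together give 1 value, that the platform annotation assigns to that gene alone. Of the 9 genes, 8 had such probe sets, 17 in all, out of 18193 genes and 34945 probe sets with a single gene. Ly6a, which encodes Sca-1, was not analysed here, because the annotation used lists no probe set for it alone.

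CD34 is a sialomucin of blood progenitors and blood vessels that in mouse skin also marks stem cells of the hair follicle bulge, and in chemically induced skin tumours it has been used to isolate tumour-propagating epithelial cells. EpCAM is an adhesion molecule of epithelia, CD133 (Prom1) a pentaspan protein of membrane protrusions, CD44 a receptor for hyaluronan, and CD24 a small, heavily glycosylated, lipid-anchored protein. CD45 (Ptprc), CD31 (Pecam1) and CD140a (Pdgfra) mark leukocytes, endothelium and fibroblasts, the cell types most likely to accompany epithelium in a digested tumour.

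Tumours were raised with the carcinogen DMBA at postnatal days 23, 25 and 27, repeated doses of the promoter TPA, and more DMBA at 7 weeks of age, and both genotypes received this treatment. One array came from a wild-type mouse and the other from a K14CreER:Rosa-VEGF-164 mouse, in which a VEGF transgene is to be switched on by an inducible Cre made under the keratin 14 promoter, hence in basal epidermal cells and their descendants. Each title names a single mouse. The number of tumours behind each sample and the induction of Cre are unstated in the labels. The tumour cells were stained for CD34, α6-integrin and EpCAM, with CD45, CD31 and CD140a sharing another dye, and both samples are labelled as sorted CD34-positive epithelial cells. Whether the cells stained for CD45, CD31 or CD140a were left out of the sort is unstated in the labels. With 1 array per group there was no replicate error, no test and no p-value, and each value below is a single measurement.

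The values are MAS5 signals, in arbitrary units, from an Affymetrix Mouse Genome 430 2.0 array, which reads mainly the 3′ ends of transcripts. Both arrays had a trimmed mean signal of 100.04. A background level was set on each array at the 90th percentile of 80 probe sets for olfactory and vomeronasal receptors, which skin cells are not expected to use, and it was 19.8 on the wild-type array compared with 11.3 on the array labelled VEGF, called the VEGF-labelled array below. All ratios put the VEGF-labelled array over the wild-type one, and a gene takes the value of its brightest probe set. A gene above background on a single array has a bound in place of a fold, taken against the other array's level and written "at least". The only measure of error was the disagreement of probe sets within a gene: over 4885 genes, the log2 ratio of a single one had an SD of 0.50 in the dimmest tertile, 0.42 in the next and 0.32 in the brightest. Spread between mice, tumours and sorts is not covered by it. Vegfa itself had signals of 397 on the VEGF-labelled array and 804 on the wild-type array, and whether its probe sets read the transgene is not known here, so the genotype label was not checked by it and the directions follow the label.

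Prom1 was the only one of the 9 genes 2-fold or more apart between the arrays by its brightest probe set, and it was higher on the VEGF-labelled array. Cd34 was also higher there, by less than 2-fold, while Cd44, Cd24a and the brightest Epcam probe set differed little. Of the 7 members with a fold or a bound, 1 was higher by 2-fold or more, where 3.87% of 12198 genes were, and 0 were lower by 2-fold or more, where 8.53% of genes were. Among genes within 1 log2 unit of the signal of each member above background on both arrays, fewer were lower by as much. These shares ran from 2.99% for Cd44 to 4.11% for Prom1, and the higher shares from 1.19% for Cd44 to 4.49% for Prom1. The 5 members above background on both arrays all had a ratio above 0, against 46.8% of the 11233 genes above background on both. Of the 17 member probe sets 10 were above background on both arrays, as were 55.4% of all, and 0 on the wild-type array alone, as were 2.91% of all. Single probe sets were less uniform in direction: 8 of these 10 had a ratio above 0, against 44.5% of all such probe sets. Of the 12 with a fold or bound, 1 was higher by 2-fold or more, where 3.53% of 21515 probe sets were, and 1, of Epcam, was lower by as much, where 10.3% were. The median log2 ratio was 0.37 over the 7 members and -0.04 over all genes with a fold or bound. In RNA from a sorted population, a change in the share of cells that express a gene and a change in RNA per cell cannot be told apart.

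**Figure D1:**
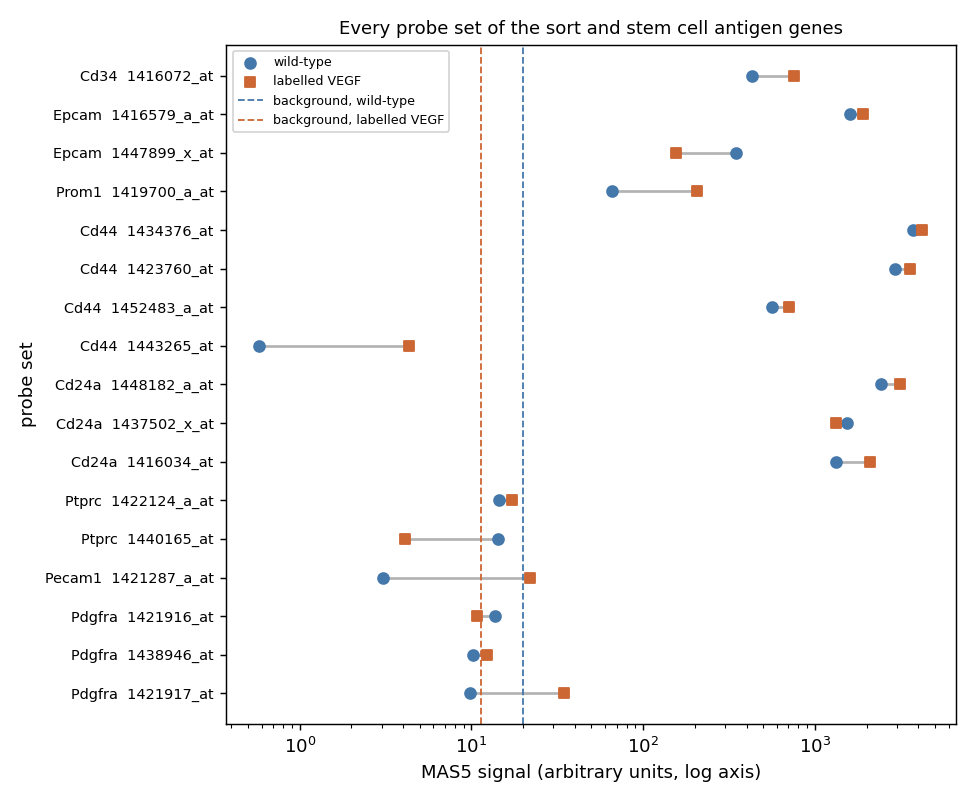
MAS5 signal (arbitrary units, log axis) of all 17 member probe sets in the wild-type sample (circles) and on the VEGF-labelled array (squares), with each array's background level as a dashed line. The probe sets of Cd34, Epcam, Prom1 and Cd24a and 3 of the 4 Cd44 probe sets lie above background on both arrays, and those of Ptprc, Pecam1 and Pdgfra lie below background in the wild-type sample and between 4.12 and 34.7 on the VEGF-labelled array.

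Cd34, whose product was one of the stains behind the sort, was well above background on both arrays. Its single probe set (1416072_at) had a signal of 430 on the wild-type array compared with 751 on the VEGF-labelled array. That is 1.75-fold higher, a log2 ratio of 0.80 where the SD between probe sets at this signal was 0.32. Among those 11233 genes, 658 (5.86%) had a ratio at least as high. The share was 5.99% among the 2337 genes whose mean log2 signal lay within 1 unit of that of Cd34. With no further probe set for Cd34, its ratio has no check within the gene. The annotated gene lies on chromosome 1 (194938821 to 194961292, GRCm38.p6).

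Epcam was read by 2 probe sets that went opposite ways. The brighter one (1416579_a_at) had signals of 1597 on the wild-type array compared with 1905 on the VEGF-labelled array, a log2 ratio of 0.25. The other (1447899_x_at) had 347 and 155, a log2 ratio of -1.16, which is 2.24-fold lower. The suffix _x_at marks probe sets with probes that can also bind other transcripts, and _a_at marks those that read several transcripts of 1 gene. The gap of 1.42 between both ratios was large for such pairs: of 2888 genes with exactly 2 probe sets above background on both arrays, 130 (4.50%) had a gap at least as large, and the median gap was 0.39. The direction of Epcam between the arrays therefore depends on the probe set read. On both arrays both probe sets were above all 80 receptor probe sets, so the transcript was detected in both samples.

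The third stained epithelial antigen, α6-integrin, is encoded by Itga6, which anchors basal cells to the basement membrane and is given here for comparison. Its 2 probe sets had signals of 3952 and 3383 on the wild-type array compared with 2421 and 2400 on the VEGF-labelled array, log2 ratios of -0.71 and -0.50. Cd34 and Itga6, both part of the CD34 and α6-integrin stain, thus lay on opposite sides of 0.

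**Figure D2:**
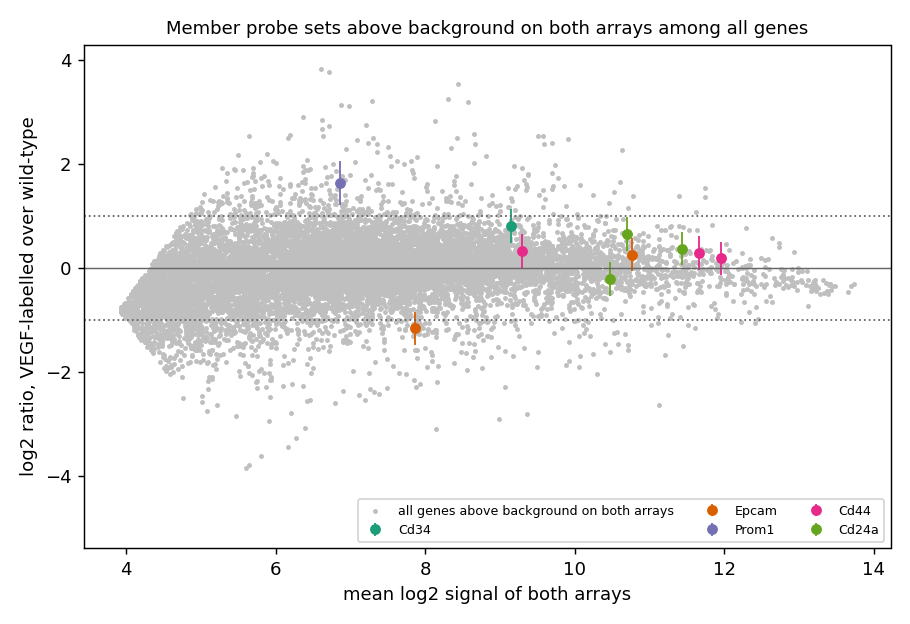
Log2 ratio of the VEGF-labelled array over the wild-type array against the mean log2 signal of both arrays, for all genes above background on both arrays (grey) and for the 10 member probe sets there (coloured). Bars are the SD between probe sets at that signal, and dotted lines mark 2-fold. Prom1 lies above the upper line, 1 Epcam probe set below the lower one, and the others between them.

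Prom1 encodes CD133, used as a marker of stem-like cells in several epithelial tumours. Its single probe set (1419700_a_at) had a signal of 65.9 on the wild-type array compared with 205 on the VEGF-labelled array. The ratio was 3.11-fold, or 1.64 on the log2 scale, where the SD between probe sets at this signal was 0.42. The signal was 3.32 times the background level on the wild-type array and 18.1 times on the VEGF-labelled array. Among the 11233 genes, 102 (0.908%) had a ratio at least as high, as had 1.26% of the 4450 genes of like signal. Prom2, its closest relative, had signals of 88.3 and 104 on the wild-type array and the VEGF-labelled array, a log2 ratio of 0.24, and was singled out after seeing its value.

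The start-site windows of Prom1 and Cd34 are shown because these were the members above background on both arrays with the highest ratios. RefSeq (GRCm38.p6) lists 2 start sites for Prom1 in the table used, at chr5:44101687-44101986 and, further into the gene, at chr5:44094719-44095018, both on the minus strand, and 1 for Cd34 at chr1:194938571-194938870 on the plus strand. Each window runs from 250 bases before the start to 50 after it. Capitals mark matches, on either strand, to 5 motifs. The AP-1 motif is taken in a loose form, TGANTCA with any base at N. The GC box has the letters GGGCGG and the CCAAT box the letters CCAAT. The TATA motif has the letters TATAAA and the E-box the letters CACGTG. No match overlaps another in these windows.
Prom1, first start: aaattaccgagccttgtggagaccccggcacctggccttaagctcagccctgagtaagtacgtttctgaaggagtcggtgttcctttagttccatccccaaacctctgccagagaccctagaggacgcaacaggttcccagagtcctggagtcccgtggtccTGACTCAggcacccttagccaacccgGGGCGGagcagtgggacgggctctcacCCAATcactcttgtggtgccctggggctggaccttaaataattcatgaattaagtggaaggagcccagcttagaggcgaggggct
Prom1, second start: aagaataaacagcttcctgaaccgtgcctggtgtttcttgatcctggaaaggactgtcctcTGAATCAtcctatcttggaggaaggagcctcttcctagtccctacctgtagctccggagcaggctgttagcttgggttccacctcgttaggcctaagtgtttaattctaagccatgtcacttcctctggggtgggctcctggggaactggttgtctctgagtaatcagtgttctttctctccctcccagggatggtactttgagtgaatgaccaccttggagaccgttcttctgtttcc
Cd34: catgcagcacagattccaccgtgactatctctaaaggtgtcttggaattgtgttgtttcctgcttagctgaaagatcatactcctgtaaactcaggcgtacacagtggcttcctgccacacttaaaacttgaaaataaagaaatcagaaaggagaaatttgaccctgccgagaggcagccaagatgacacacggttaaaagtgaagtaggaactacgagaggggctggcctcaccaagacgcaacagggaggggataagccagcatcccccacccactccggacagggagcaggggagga
The letters TGANTCA, with any base allowed at N, occur in both Prom1 windows. They read TGACTCA, beginning 88 bases before the first start, and TGAATCA, beginning 189 before the second. With any base at N, TGANTCA occurs in 7.81% of all 32851 windows of the same length. The first Prom1 window also holds a GC box, present in 35.7% of windows, and a CCAAT box, present in 37.4%. The Cd34 window holds none of the 5 motifs, which says only that these letters are not in it. The GC content was 57.0% and 50.3% in the Prom1 windows, against a median of 52.7% over all windows. A match of letters is a description of the sequence and was not tied to the array values.

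Cd44 was bright and nearly equal on both arrays by 3 concordant probe sets. The brightest (1434376_at) had signals of 3713 on the wild-type array compared with 4224 on the VEGF-labelled array, a log2 ratio of 0.19. The next (1423760_at) had 2932 and 3572, a log2 ratio of 0.28, and the dimmest of the 3 (1452483_a_at) had 564 and 706, a log2 ratio of 0.32. All 3 were slightly higher on the VEGF-labelled array, by about the SD of 0.32 between probe sets at this signal or less. Their spread of 0.14 was narrow: 96.9% of 1212 genes with 3 such probe sets had a spread at least as wide. The fourth Cd44 probe set (1443265_at) lay below background on both arrays, at 0.58 and 4.32, although the others were bright. Which stretch of the transcript each one reads is not annotated, and CD44 has many splice forms.

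Cd24a was likewise bright on both arrays, with probe sets that differed in direction. The brightest (1448182_a_at) had signals of 2432 on the wild-type array compared with 3141 on the VEGF-labelled array, a log2 ratio of 0.37. A further one (1416034_at) had 1331 and 2088, a log2 ratio of 0.65, and the third (1437502_x_at) had 1533 and 1324, a log2 ratio of -0.21. The third is again of the kind that can bind other transcripts. The spread of 0.86 was ordinary for a gene with 3 probe sets, since 35.1% of the 1212 such genes had one as wide and their median was 0.68. Of 11233 genes, 20.4% had a ratio at least as high as that of the brightest Cd24a probe set, 27.5% one as high as the brightest of Epcam, and 32.4% one as high as the brightest of Cd44.

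The genes of the lineage antigens CD45, CD31 and CD140a each had 1 or more probe sets above background on the VEGF-labelled array, and had none above it in the wild-type sample. All 6 of their probe sets were below the background level on the wild-type array, and 4 of the 6 were above the lower level of the VEGF-labelled array. Of all 34945 probe sets with a single gene, 31.9% were above background on neither array and 9.80% on the VEGF-labelled array alone. The like comparison is with probe sets not above the wild-type level. Of those, 3426 were above background on the VEGF-labelled array and 11135 were not. The Ptprc probe set at 17.3 and the Pdgfra probe set at 12.3 passed only the lower VEGF-labelled level and did not reach 19.8.

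Ptprc, the phosphatase gene of all nucleated blood cells, had signals of 14.4 and 14.2 on the wild-type array compared with 17.3 and 4.12 on the VEGF-labelled array in its 2 probe sets. Of the 80 receptor probe sets, 68 and 67 were lower than these in the wild-type sample, whereas 76 and 49 were lower on the VEGF-labelled array. The brighter probe set was above background on the VEGF-labelled array alone, and at 17.3 it did not reach the wild-type background of 19.8, so Ptprc has no fold.

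Pecam1, an adhesion molecule gene of endothelium, platelets and some leukocytes, had a signal of 3.07 on the wild-type array compared with 22.0 on the VEGF-labelled array in its only probe set. The wild-type value was near the middle of the receptor probe sets, with 36 of 80 lower, and the other value near their top, with 78 of 80 lower. As a bound this is at least 1.11-fold higher. The ratio of the raw signals rests on a value that cannot be told from background.

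Pdgfra, the receptor gene for platelet-derived growth factors on dermal fibroblasts, had 3 probe sets that disagreed. The brightest (1421917_at) had a signal of 9.86 on the wild-type array, below background, and of 34.7 on the VEGF-labelled array, 3.06 times background and above all 80 receptor probe sets, at least 1.75-fold higher. The other probe sets had 13.7 and 10.2 on the wild-type array compared with 10.7 and 12.3 on the VEGF-labelled array, and neither gives a fold. The one at 12.3 (1438946_at) was just above the VEGF-labelled level of 11.3 but did not reach the wild-type level of 19.8. A Pdgfra signal above both levels thus rests on 1 probe set on 1 array.

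**Figure D3:**
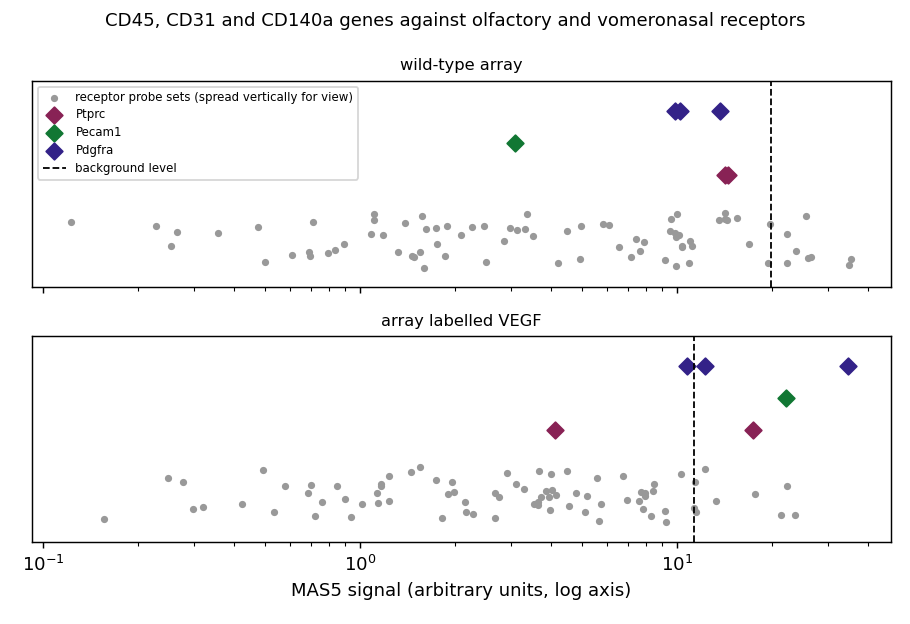
MAS5 signal (arbitrary units, log axis) of each Ptprc, Pecam1 and Pdgfra probe set (diamonds) and of 80 olfactory and vomeronasal receptor probe sets (grey, spread vertically for view) on each array, with the background level dashed. The 6 lineage probe sets lie below the level of 19.8 on the wild-type array, while on the VEGF-labelled array 4 of them lie above the level of 11.3, with 1 Pdgfra probe set at 34.7 beyond every receptor probe set.

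Further markers of the same lineages were read beside these genes, as counts of how many passed 2-fold and as summed signals. Of all 12198 genes with a fold or bound, 472 (3.87%) were higher and 1041 (8.53%) lower by 2-fold or more. With the higher background level on both arrays, 624 were lower by as much. Where signals are joined by "against" from here on, the VEGF-labelled array comes first. Of 21 measured leukocyte markers, 12 were above background on the wild-type array compared with 9 on the VEGF-labelled array, with summed signals of 536 and 467. The median log2 ratio of the 12 with a fold or bound was -0.73. For 4 of the 12, above background on the wild-type array alone, the lower VEGF-labelled level by itself keeps the bound below 0. The list median was -0.05 after the array medians were matched and 50 was added to every signal in place of the background level. The actin regulator gene Coro1a was 2.51-fold higher on the VEGF-labelled array (64.7 against 25.8), with another probe set at a log2 ratio of 0.54, and Cd52 at least 2.61-fold lower (3.52 against 29.6), which shrinks to a log2 bound of -0.58 with the higher background level on both arrays. Adgre1, the F4/80 macrophage gene, and Tyrobp, a myeloid signalling adaptor gene, were just above background on the wild-type array only (2.41 against 22.3, and 10.0 against 22.1). Ptpn6 had the highest signal of the list, 120.5 on the VEGF-labelled array and 90.4 on the wild-type array. Genes of macrophages and other myeloid cells were also above background on both arrays, among them Cd68 (69.0 against 43.4), the lysozyme gene Lyz2 (35.9 against 32.8) and Csf1r (27.1 against 47.8). Some defining genes of single leukocyte types were below background on both arrays: Cd3e of T cells (2.76 and 3.76 on the wild-type array and the VEGF-labelled array), Cd79a of B cells (2.19 and 0.88) and the integrin gene Itgam of myeloid cells (4.84 and 4.20). These 6 genes were named after their values were seen.

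Langerhans cells, the dendritic cells of the epidermis, carry CD45 and EpCAM together. Of 11 measured Langerhans and dendritic cell markers, 5 were above background on both arrays. On the VEGF-labelled array 2 were lower by 2-fold or more, where 8.53% of all genes were. None was higher by as much, where 3.87% were. The summed signal was 615 on the wild-type array compared with 414 on the VEGF-labelled array. The antigen presentation genes H2-Eb1 (4.89-fold, 26.4 against 129) and H2-Aa (2.86-fold, 58.5 against 168) were lower, H2-Ab1 had 194 against 137, but its other probe sets gave log2 ratios of -0.82 and 0.13, and the receptor gene Csf1r, given above, had another probe set at -1.10. Cd207, which encodes the Langerhans cell protein langerin and is named after its values were seen, was below background on both arrays (2.54 and 8.14).

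Of 16 endothelial markers, 9 were above background on the wild-type array compared with 13 on the VEGF-labelled array, with summed signals of 421 and 512. The shares of all single-gene probe sets were 58.3% and 65.2%. Of the 4 endothelial markers above background on the VEGF-labelled array alone, Robo4 (19.6) and Erg (13.4) did not reach the wild-type level of 19.8. The list had 1 gene higher by 2-fold or more, where 3.87% of all genes were, and 0 lower by as much, where 8.53% were. Its median log2 ratio was 0.24 over 11 genes. The higher one was Mmrn2, an endothelial matrix protein gene, with a log2 ratio of 1.59 (97.7 against 32.5) and 3 other probe sets between 0.79 and 2.88. The cadherin gene Cdh5, the adhesion gene Esam and the transcription factor gene Sox17 had lower signals on the VEGF-labelled array (16.8 against 27.3, 26.9 against 42.9, and 12.2 against 21.5). With the higher background level on both arrays, the log2 ratio of Sox17 shrinks from -0.81 to -0.12. That of Cdh5 then goes from -0.70 to -0.46, and that of Esam stays at -0.67. After quantile and loess normalization Cdh5 had -0.32 and -0.30, and Esam -0.36 each. Of the 11 genes, 6 had a ratio above 0. Pecam1 and the other endothelial markers thus had no common direction.

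Of 14 fibroblast markers, 12 were above background on both arrays. On the VEGF-labelled array 3 were higher by 2-fold or more, where 3.87% of all genes were, and 1 lower by 2-fold or more, where 8.53% were. The summed signal was 3031 on the wild-type array compared with 3737 on the VEGF-labelled array. The collagen genes Col1a2 (2.91-fold, 942 against 324) and Col3a1 (2.52-fold, 1235 against 490, with another probe set at a log2 ratio of 0.94) and the transcription factor gene Twist2 (3.76-fold, 84.6 against 22.5) were higher. Thy1, a lipid-anchored antigen gene, was 2.31-fold lower (25.1 against 58.1), and Postn, the matrix gene with the highest signal of the list, had 798 against 1595. After quantile and loess normalization the log2 ratio of Thy1 was -0.95 and -0.93, under 2-fold. The list median of -0.04 was near that of all genes. Pdgfrb, the partner receptor gene, had nearly equal signals (34.9 against 36.8). The part of admixed cells in the values of Cd34, Pdgfra and Pecam1, which fibroblasts, pericytes or endothelium can also express, was not tested.

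**Figure D4:**
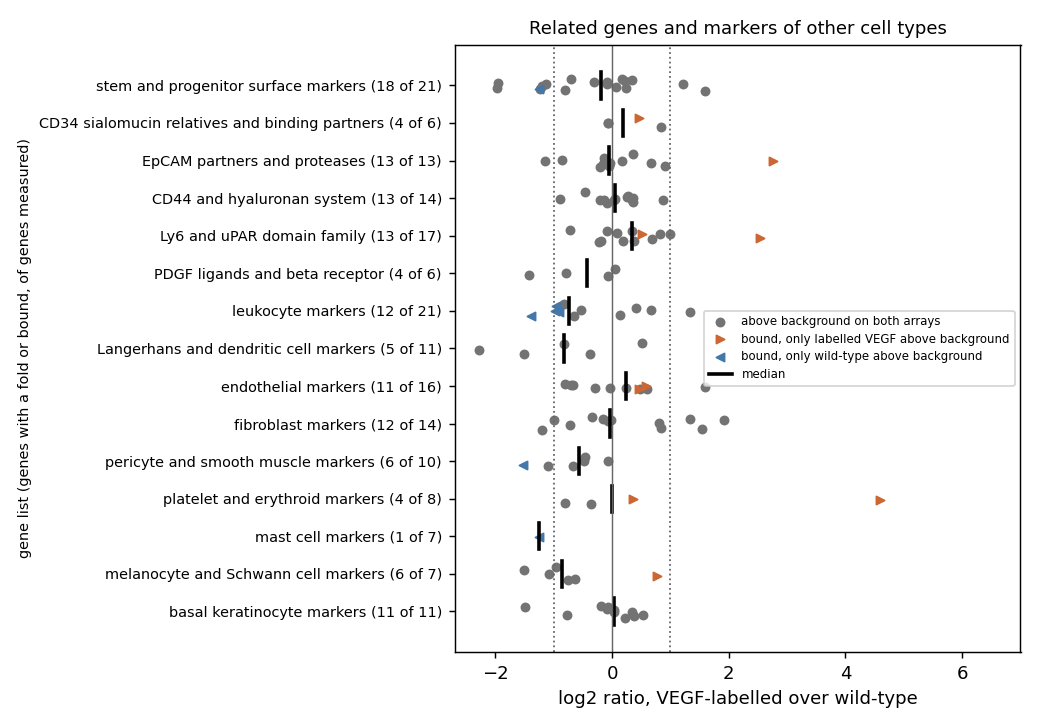
Log2 ratio of the VEGF-labelled array over the wild-type array for each gene of 15 lists, with list medians as black bars and 2-fold as dotted lines. Triangles are bounds for genes above background on 1 array only. The basal keratinocyte and CD44 lists lie close to 0, with medians of 0.03 and 0.04, and the lists of leukocyte and of Langerhans and dendritic cell markers have medians of -0.73 and -0.82. With matched array medians and an offset of 50 in place of the background level, the first 2 were 0.41 each and the last 2 -0.05 each.

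Lists of other cells were read in the same way, beside the shares of all genes, 3.87% higher and 8.53% lower by 2-fold or more. Of 10 pericyte and smooth muscle markers 6 were above background on each array and 2 were lower by 2-fold or more on the VEGF-labelled array, the smooth muscle actin gene Acta2 (2.15-fold, 755 against 1621) and, as a bound, Des (at least 2.87-fold, or a log2 bound of -0.71 with the higher background level on both arrays). Rgs5 had 158 against 219, with its other probe sets at log2 ratios of -0.14 and 0.02, and Tagln had 41.2 against 65.3. The summed signal of that list was 2095 on the wild-type array compared with 1094 on the VEGF-labelled array. All 7 melanocyte and Schwann cell markers were above background on the VEGF-labelled array and 5 on the wild-type array, but Mlana, at 15.3 against 18.2, passed only the lower VEGF-labelled level. Of the 7, 2 were lower by 2-fold or more, the pigment genes Dct (2.86-fold, 53.6 against 153) and Tyrp1 (2.12-fold, 41.4 against 88.0), while S100b had 19.3 against 37.6, with its other probe set at a log2 ratio of -1.27. After quantile and loess normalization the log2 ratio of Tyrp1 was -0.94 and -0.93, under 2-fold. Sox10 had 33.7 against 18.4, the latter below background, but 1 other probe set of it gave a log2 ratio of -1.20. Its direction thus depends on the probe set. Of 7 mast cell markers 1, the stem cell factor receptor gene Kit, was above background on the wild-type array (8.14 against 27.0). Of 8 platelet and erythroid markers 1, the platelet chemokine gene Ppbp, was higher by 2-fold or more on the VEGF-labelled array. As a bound it was at least 24.2-fold (480 against 6.71, the latter below background). Pf4, another platelet chemokine gene, was at least 1.28-fold higher (25.3 against 16.7, the latter below background). Itga2b had 39.4 against 69.3 and Gp1bb 25.2 against 32.5.

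Basal keratinocyte genes were bright on both arrays. All 11 measured were above background on both arrays, and the median log2 ratio was 0.03. By 2-fold or more, 0 were higher, where 3.87% of all genes were, and 1 lower, where 8.53% were. Krt14, the brightest, had 8571 on the VEGF-labelled array and 8990 on the wild-type array. The 1 lower gene by its brightest probe set was Krt15, a keratin gene of basal and bulge cells, 2.81-fold (999 against 2806). Trp63, a transcription factor gene of basal cells, had 1587 against 2706, with its 3 other probe sets at log2 ratios between -2.52 and -0.37. The E-cadherin gene Cdh1 had 3005 against 2320 and the linker gene Dst 1095 against 756.

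Other surface markers of stem and progenitor cells had ratios on both sides of 0. Of 18 with a fold or bound among the 21 measured, 7 had a ratio above 0, as Prom1 and Cd34 did. On the VEGF-labelled array 6 were lower by 2-fold or more, where 8.53% of all genes were, and 2 higher by 2-fold or more, where 3.87% were, and the median log2 ratio was -0.20. Lgr5, a follicle stem cell receptor gene, was 3.94-fold lower (66.4 against 261) and Lrig1, an inhibitor of growth factor receptors, 3.90-fold lower (191 against 747), although 1 other Lrig1 probe set gave a log2 ratio of 0.14. Kit was at least 2.38-fold lower, or a log2 bound of -0.45 with the higher background level on both arrays. The 2 higher genes were Mcam, which encodes the adhesion molecule CD146, with a log2 ratio of 1.59 (169 against 56.4), and Met, the hepatocyte growth factor receptor gene, 2.32-fold (780 against 337) and named after its values were seen. Cd9, a tetraspanin gene and the brightest of the list, had 5532 against 4908.

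Relatives and partners of each antigen were read from lists, beside the shares of all genes, 3.87% higher and 8.53% lower by 2-fold or more. For CD34, 6 relatives and binding partners were measured and 0 were 2-fold apart. Among them the sialomucin gene Emcn, also an endothelial marker, had 27.2 against 4.57, at least 1.37-fold higher, the scaffold gene Slc9a3r1 was 1.78-fold higher (1279 against 718), and Cd164 and Crkl had log2 ratios of -0.08 each, with other Crkl probe sets at -0.16 and 0.13. For EpCAM, 13 partners and proteases were measured, 1 was higher by 2-fold or more and 1 lower by 2-fold or more. The higher gene was Cldn7, a claudin that binds EpCAM directly, above background on the VEGF-labelled array alone (134 against 14.02). The lower one was Lef1, a Wnt pathway transcription factor, 2.23-fold (18.7 against 41.6). Spint1, a protease inhibitor gene, had 288 against 153, and Cldn1 99.7 against 180, with other Cldn1 probe sets at log2 ratios of -1.49 and 0.11.

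Genes of the hyaluronan system around CD44 lay within 2-fold on both sides of 0 by their brightest probe sets. Of 14 measured genes 0 were 2-fold apart, where 12.4% of all genes were, with a median log2 ratio of 0.04 over 13. The hyaluronan synthase gene Has2 had the lowest ratio (164 against 305, log2 ratio -0.90) and the hyaluronan-degrading Cemip the highest (159 against 86.2, log2 ratio 0.88). Rdx, a membrane-to-actin linker of CD44, had 695 against 963, but its other probe sets gave 0.13 and 0.25, and the hyaluronan receptor gene Hmmr had 233 against 182, while 3 other Hmmr probe sets gave log2 ratios between 0.57 and 1.46.

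In the Ly6 and uPAR domain family, to which Ly6a belongs, 17 genes were measured, with a median log2 ratio of 0.35 over 13 genes. By 2-fold or more, 1 was higher, where 3.87% of all genes were, and 0 lower, where 8.53% were. The higher gene was Psca, which encodes prostate stem cell antigen, above background on the VEGF-labelled array alone (115 against 7.26, at least 5.82-fold). Plaur, the urokinase receptor gene, was just under 2-fold higher (289 against 145, log2 ratio 0.99). Ly6d, a keratinocyte member and the brightest, had 2912 against 1654 (log2 ratio 0.82), and Ly6k 51.0 against 84.5 (log2 ratio -0.73), with its other probe set at -0.02. Genes of this family are similar in sequence, and the annotation used here gives Ly6c1 and Ly6c2 a shared probe set that was not used.

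Among the ligands of the PDGF receptors, the epithelial ligand gene Pdgfa was nearly equal on both arrays (465 on the VEGF-labelled array against 449), with its other probe set at a log2 ratio of -0.05. Pdgfc, the other main ligand of CD140a, was 2.70-fold lower (106 against 286), and its other probe set gave a log2 ratio of -1.92. Pdgfb had 75.1 against 129. Of the 6 genes of this list, 0 were higher by 2-fold or more, where 3.87% of all genes were, and 1 lower, where 8.53% were.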

How the data were processed

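The deposited table held log2 signals of 45101 probe sets on 2 arrays, 1 per genotype; the submitters' processing notes name MAS5, with no version or scaling target. The authors' log2 values were used as deposited. The platform annotation, dated later than the array, gave 34945 non-control probe sets exactly 1 gene, and 34741 of their gene IDs were found in the GRCm38.p6 table. Signals below the background level (90th percentile of 80 receptor probe sets) were raised to it, ratios were taken per probe set, and a gene was represented by the probe set of highest mean log2 value. No fold was given to genes above background on neither array, or where a bound came out under 1-fold. A change of at least 2-fold was the rule of size. Named genes were all members, up to 4 genes with the largest ratios per list and the brightest gene of each cell type list. The members and lists were chosen with earlier results of these data known. The 10 other settings were floors, offset, normalizations, centring and probe set choices, besides a size rule of 1.5-fold. The computation (Python 3.11.15, numpy 2.4.6, pandas 2.3.3, statsmodels 0.14.6) was tested on simulated data. Depth does not apply to arrays, whose number limits the precision. Ly6a and probe sets with several genes were not analysed here.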

Additional observations from a re-analysis of the deposited data

How the results depend on the processing

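Of 87 member values recomputed under the other settings, 75 moved by less than the SD between probe sets or left the count as it was. Many of them could not move. Floor settings do not touch bright genes, and the median or brightest probe set is unchanged where a gene has 1 probe set. The share of 75 in 87 is therefore not a measure of stability. The log2 ratio of Cd34 lay between 0.73 and 1.11 and that of Prom1 between 1.46 and 1.69 in every setting that gave one. With no background floor, Pecam1 had a log2 ratio of 2.84 and Pdgfra of 1.81, and 3 members were higher by 2-fold or more. With the offset of 50 after matching the medians, which moved the median of all genes from -0.04 to 0.11, the log2 ratios were 0.63 for Epcam, 0.57 for Cd44 and 0.75 for Cd24a, and 2 members, Prom1 and Cd34, were higher by 2-fold or more. Matching the medians (22.6 on the wild-type array, 17.3 on the VEGF-labelled array) raised every VEGF-labelled signal by the same factor. Bright genes take up nearly all of this shift, and Itga6 likewise moved from -0.71 to -0.31. Quantile and loess normalization each gave 2, Prom1 and Pdgfra. The median over probe sets turned Epcam to -0.46. Without probe sets ending in _x_at, _s_at or _a_at, 0 members were higher by 2-fold or more, since Prom1, Pecam1 and Epcam then had no probe set. With a size rule of 1.5-fold 3 members were higher, and 0 were lower in any of the 11 alternatives. Higher genes made up 31.2% of all genes 2-fold apart as deposited, 39.1% with each array's median as floor, 43.1% with a common floor, 51.1% after quantile and 52.8% after loess normalization and 85.9% with the offset. Of 300 list counts, 249 stayed within 1.5 times the reported one, with counts of 0 that stayed 0 included. Leukocyte markers lower by 2-fold or more varied most, between 0 and 7 against 1. The median of the fibroblast list lay between -0.04 and 0.21, and that of the leukocyte list between -0.78 and -0.05. No paired analysis was possible because each group has 1 array, and no replicate could be left out. Ratios of Ptprc, Pecam1 and Pdgfra are limited by signals near background.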
